A study of Mus musculus with 9 samples.

Results

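MHC class I antigen presentation was followed through 10 genes, B2m, H2-K1, H2-D1, Tap1, Tap2, Tapbp, Psmb8, Psmb9, Nlrc5 and Erap1, chosen by name. A gene counted as measured where at least 1 probe set carried its symbol and no other. This held for 8 of the 10 genes, with 26 probe sets, out of 19938 genes and 21789 such probe sets in all. H2-K1 and H2-D1 had none, because the probe sets that list them list both together with a further symbol. Nlrc5 had 19 of the 26 probe sets and each of the other 7 genes had 1. The RNA was hybridised to whole-transcript Affymetrix arrays, in 3 groups of 3 arrays each. Induced pluripotent stem (iPS) cells formed one group, the mouse embryonic fibroblasts below passage 3 (MEF) from which they were made another, and R1, a line of mouse embryonic stem cells, the last. According to the design text the arrays of a line are biological repeats, and the fibroblasts and the embryonic stem cells serve as controls of the iPS cells. The labels used here name no strain for the fibroblasts, no number of iPS clones, no reprogramming factors and no feeder cells. Whether those repeats are separate derivations is not stated, so p-values measure only the spread between these samples, which may be technical.

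MHC class I molecules display peptides from inside the cell to cytotoxic T cells, and their absence is sensed by natural killer cells. A heavy chain, encoded by genes such as H2-K1 and H2-D1, pairs with the light chain beta-2 microglobulin, encoded by B2m. Peptides are cut by the proteasome, in which Psmb8 and Psmb9 encode catalytic subunits of the interferon-inducible immunoproteasome, are carried into the endoplasmic reticulum by the transporter made of Tap1 and Tap2, are trimmed there by the aminopeptidase Erap1, and are loaded with the help of tapasin, encoded by Tapbp. Nlrc5 encodes a transactivator of class I genes. Interferon gamma raises most of these genes, and early embryonic and pluripotent cells are known for low surface class I.

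The stretches just before the start sites are shown for the members that fell (B2m and Erap1) and for the neighbours Tap1 and Psmb9, which are transcribed away from each other. They are RefSeq promoter windows of GRCm38.p6, and 8 of the 10 genes had such a window. The B2m stretch is chr2:122147462-122147686 on the plus strand, the Erap1 stretch chr13:74639628-74639852 on the plus strand, and the stretch between the Psmb9 and Tap1 starts chr17:34187331-34187555, printed on the plus strand, the strand of Tap1. Each has 225 bases and ends at the base before the start site. Capitals mark matches, on either strand, to 4 motifs. Only set letter patterns were searched, so near variants stayed unmarked.
B2m: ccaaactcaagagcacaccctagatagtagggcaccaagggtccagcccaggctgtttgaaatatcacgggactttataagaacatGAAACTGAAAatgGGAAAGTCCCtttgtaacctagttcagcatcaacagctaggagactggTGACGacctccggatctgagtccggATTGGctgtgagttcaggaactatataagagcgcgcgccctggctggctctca
Erap1: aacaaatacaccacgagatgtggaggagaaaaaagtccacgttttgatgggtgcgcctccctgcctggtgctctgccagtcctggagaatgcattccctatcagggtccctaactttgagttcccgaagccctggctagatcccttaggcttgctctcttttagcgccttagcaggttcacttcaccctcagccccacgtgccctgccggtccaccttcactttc
Tap1 with Psmb9: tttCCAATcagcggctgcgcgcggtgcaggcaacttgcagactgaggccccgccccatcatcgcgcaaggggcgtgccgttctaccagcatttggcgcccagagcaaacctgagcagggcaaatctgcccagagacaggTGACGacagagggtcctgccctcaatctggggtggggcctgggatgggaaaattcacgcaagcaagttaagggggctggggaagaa
The motifs were an interferon-stimulated element (GAAA, then NN, then GAAA), the NF-kappaB consensus, the CCAAT box (CCAAT) and a cAMP response half-site (TGACG). They occurred in 2.62%, 3.54%, 31.6% and 16.8% of all 32851 promoter stretches of the same length. The B2m stretch held all 4, none overlapping another, with the interferon-stimulated element beginning 139 bases before the start. The stretch between Psmb9 and Tap1 held a CCAAT box and a cAMP response half-site, and the Erap1 stretch held none of the 4 within these 225 bases. Of the members not shown, H2-K1 and H2-D1 held the NF-kappaB consensus, the CCAAT box and the cAMP response half-site. Neither held the interferon-stimulated element. Tapbp held only a CCAAT box, and Psmb8, which was not called, held none of the 4. A match is a run of letters, not a measured site.

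Values are the deposited linear signals. Differences were computed on log2(signal + 16), which understates the change of dim genes, and were tested with limma over all 19938 genes with Benjamini-Hochberg adjustment. A gene was called, and is said to have risen or fallen, at an adjusted p under 0.05 together with a log2 difference of at least 1 in size. Each difference is given with its standard error. Without detection calls, dim signals and background could not be separated. In these bulk arrays, fewer cells of a type and less RNA per cell cannot be told apart. Array medians lay between 78.2 and 83.3. The groups carried their defining genes: 8 of 8 markers of pluripotent cells rose in R1 and in iPS cells against MEF, and 10 of 10 fibroblast markers fell. Among all genes 5.56% rose and 7.94% fell in R1, and 5.08% rose and 7.58% fell in iPS cells. Between the pluripotent lines 1 of the 8 was called, lower in iPS cells, where 0.166% of all genes were. It was Zfp42, named after its values were seen, with means of 506 in iPS and 3539 in R1 arrays.

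B2m fell in both pluripotent lines and Erap1 fell in R1 cells, while the other measured members were not called in any comparison. In iPS against MEF 1 of 8 members was called, lower, where 7.58% of all genes were called lower, 5.08% higher and 12.7% in either direction. In R1 against MEF 2 of 8 were called, both lower, where 7.94% of all genes were called lower, 5.56% higher and 13.5% in either direction. At the adjusted p alone, 2 members were higher (Tapbp and Psmb9) and 2 lower (B2m and Erap1) in iPS against MEF, where 24.8% and 23.2% of all genes were. In R1 against MEF 1 was higher (Psmb9) and 2 lower (B2m and Erap1), where 25.9% and 23% of all genes were. An unadjusted p under 0.05 was reached by 4 and 3 of the 8 members in these comparisons, and by 51.8% and 52.8% of all genes. Both comparisons use the same MEF arrays. The median log2 difference of the 8 members was 0.07 in iPS against MEF, beside 0.02 over all genes, and -0.04 in R1 against MEF, beside 0.02. The members thus did not move as a block: their log2 differences ran from -1.74 to 0.65 in iPS and from -2.46 to 0.54 in R1 cells.

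**Figure D1:**
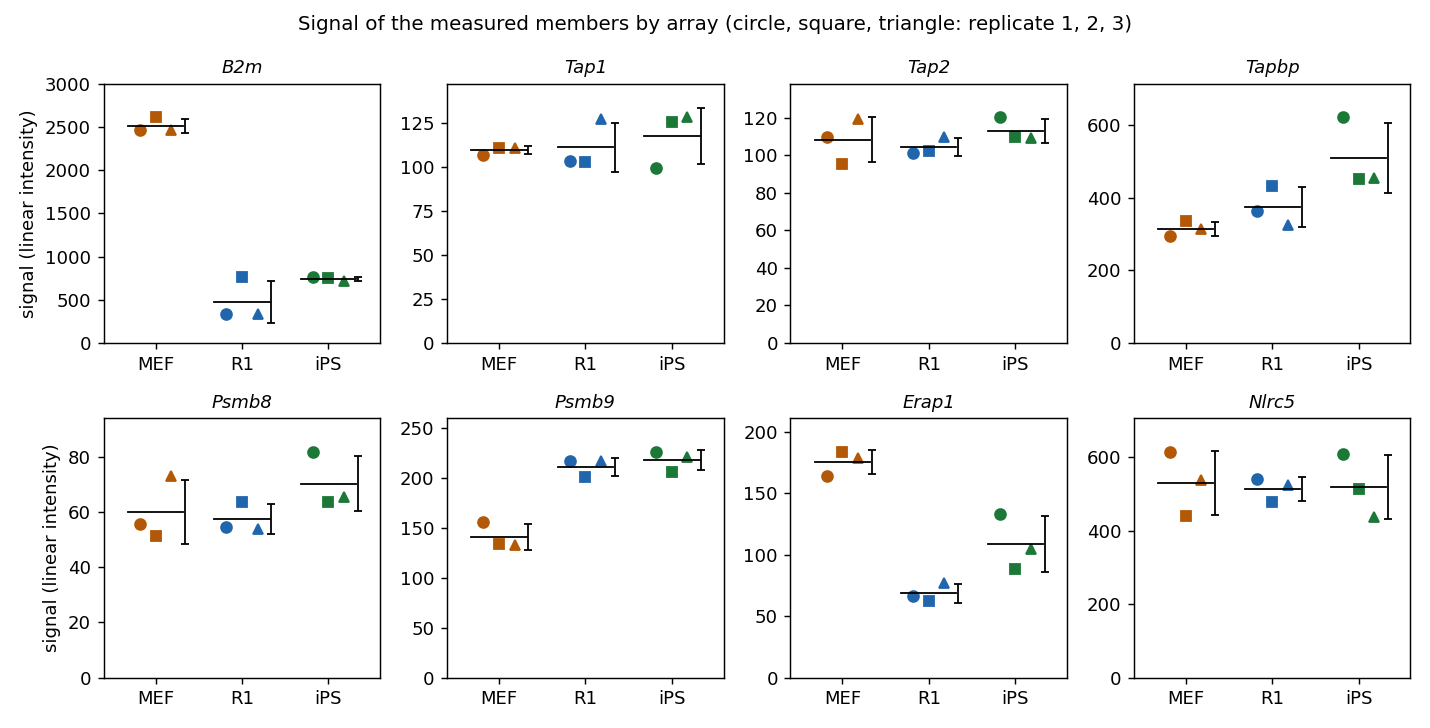
Signal (linear intensity) of the 8 measured members in each of the 9 arrays, with the group mean as a line and the SD of 3 arrays as a bar. B2m is at 2469 to 2610.3 in the fibroblasts and at 760.1 or below in every R1 and iPS array, and R1 replicate 2 sits at the level of the iPS arrays.

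B2m, the light chain that every classical class I molecule needs, had signals of 2469, 2610.3 and 2469 in MEF replicates 1 to 3. The R1 arrays gave 338, 760.1 and 335, and the iPS arrays 760.1, 755 and 719. Every MEF array lay above every R1 and iPS array, while R1 replicate 2 stood among the iPS arrays and far above the other R1 arrays. The iPS mean was 745 ± 22.3 (SD, n = 3), 29.6% of the MEF mean of 2516 ± 81.3. The log2 difference was -1.74 ± 0.25 (limma adjusted p = 0.000242). The R1 mean was 478 ± 244, 19.0% of the MEF mean, with a log2 difference of -2.46 ± 0.25 (limma adjusted p = 1.89e-05). Without R1 replicate 2 the R1 mean was 337 and the difference from MEF -2.84.

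Between the pluripotent lines the B2m result rested on that 1 array. With all arrays the iPS minus R1 difference was 0.73 ± 0.25, with a 95% interval from 0.16 to 1.30, and was not called (limma adjusted p = 0.127). Without R1 replicate 2 it was 1.11 and was called (limma adjusted p = 3.57e-05, within a range from 3.57e-05 to 0.364 when each array was left out in turn). R1 replicate 2 held 2.26 times the mean B2m signal of the other R1 arrays. The standard error of B2m in the fit, shared by all 3 comparisons, includes this spread.

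Most fibroblast markers, like B2m, had their highest R1 signal in replicate 2 and a higher mean in iPS than in R1 arrays. Of 10 fibroblast markers, 9 had their highest R1 signal in replicate 2, where 29.7% of all genes did. A higher mean in iPS than in R1 arrays was found for 8, where 47% of all genes had a log2 difference above 0. Pdgfra and Fn1 went the other way, by -0.31 and -0.12. Limma called 0 of the 10 between these lines. At the adjusted p alone 3 were higher in iPS cells, where 4.12% of all genes were. The median marker stood at 7.18%, 9.93% and 6.78% of its MEF mean in R1 replicates 1 to 3, and at 12.3%, 10.6% and 11.5% in the iPS arrays. B2m stood at 13.4%, 30.2% and 13.3% in the R1 arrays and at 30.2%, 30.0% and 28.6% in the iPS arrays. In each of these arrays its share was above that of the median marker and below that of the highest marker, Fn1, at 36.5% to 42.5%. Among the iPS arrays B2m was lowest in replicate 3 and the median marker in replicate 2. The summed signal of the 10 markers was 5631 to 6834 in R1, 6613 to 7228 in iPS and 38925 to 44258 in MEF arrays. None of the 10 had a mean signal under 50 in any group. Their part in the B2m differences was not tested.

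**Figure D2:**
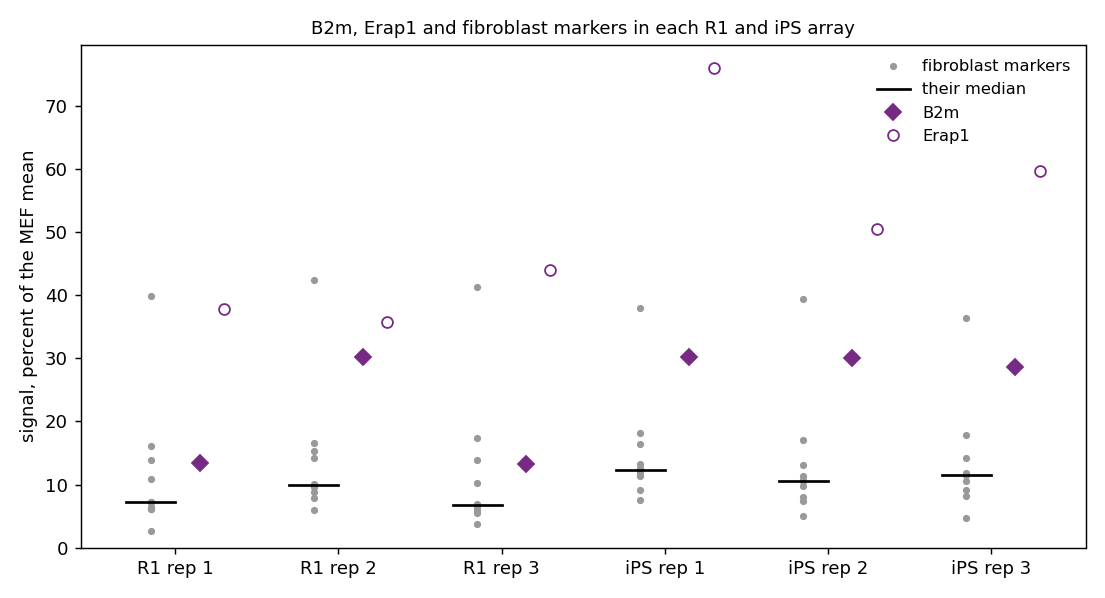
Signal in each R1 and iPS array as a percentage of the mean MEF signal, for B2m (diamonds), Erap1 (open circles), 10 fibroblast markers (grey points) and the markers' median (line). B2m is at 13.4% and 13.3% in R1 replicates 1 and 3 and between 28.6% and 30.2% in the other arrays, where the marker median is also higher.

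Erap1, the aminopeptidase that trims peptides in the endoplasmic reticulum, was highest in MEF and lowest in R1 cells. Its signals were 164, 184 and 179 in MEF, 66.3, 62.7 and 77.2 in R1, and 133, 88.6 and 105 in iPS arrays. The 3 groups did not overlap, and the iPS arrays lay between the others. The R1 mean of 68.7 ± 7.55 was 39.2% of the MEF mean of 175 ± 9.996, a log2 difference of -1.18 ± 0.12 (limma adjusted p = 1.65e-05). With a pseudocount of 64 in place of 16, which weighs dim genes less, it was -0.85 and not called. In iPS cells the mean was 109 ± 22.7 and the difference from MEF -0.63 ± 0.12, short of the minimum difference (limma adjusted p = 0.00135). Unlike B2m, Erap1 was not raised in R1 replicate 2, where it stood at 35.7% of the MEF mean against 37.8% and 44.0% in the other R1 arrays.

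Neither immunoproteasome subunit among the members was called in any comparison. Psmb9 had signals of 156, 134 and 133 in MEF, 217, 201 and 217 in R1, and 226, 206.5 and 221 in iPS arrays. Every R1 and iPS array was above every MEF array. The log2 difference from MEF was 0.58 ± 0.07 in iPS (limma adjusted p = 4.88e-05) and 0.54 ± 0.07 in R1 cells (limma adjusted p = 7.87e-05), both under the minimum difference of 1. Adjusted p alone passed for 48% of all genes in iPS against MEF and for 48.9% in R1 against MEF. Psmb8 was dim, with 55.7, 51.3 and 73.0 in MEF, 54.6, 63.6 and 53.8 in R1, and 81.6, 63.6 and 65.3 in iPS arrays. Its groups overlapped, and its differences from MEF, 0.19 ± 0.11 in iPS and -0.04 ± 0.11 in R1, had 95% intervals from -0.07 to 0.44 and from -0.30 to 0.21.

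Against MEF the transporter genes differed by less than their standard errors. Tap1, which shares its start region with Psmb9, had signals of 107, 111 and 111 in MEF, 103, 103 and 127 in R1, and 99.0, 125 and 128.0 in iPS arrays. The groups overlapped, and the difference from MEF was 0.08 ± 0.10 in iPS and 0.01 ± 0.10 in R1 cells. The 95% intervals reached from -0.14 to 0.30 and from -0.21 to 0.23, so changes of 1 log2 unit lay outside them. Tap2, the other transporter subunit, had 109.9, 95.7 and 119 in MEF, 101, 103 and 109.9 in R1, and 120.3, 109.9 and 109 in iPS arrays, which overlapped as well. Its differences from MEF were 0.06 ± 0.07 in iPS and -0.04 ± 0.07 in R1 cells, with intervals from -0.11 to 0.22 and from -0.21 to 0.12. Psmb9, Tap1, Psmb8 and Tap2 are direct neighbours in this order on chromosome 17 in the RefSeq annotation.

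Tapbp, whose product tapasin bridges the transporter and the empty class I molecule, was highest in iPS cells on the probe set that carries its symbol alone. Its signals were 296, 335 and 313 in MEF, 365, 434 and 326 in R1, and 622, 452 and 455 in iPS arrays. Every iPS array was above every other array, with replicate 1 well above its fellows, and the MEF and R1 arrays overlapped. The difference of iPS from MEF was 0.65 ± 0.13 (limma adjusted p = 0.00208), under the minimum difference, and that of R1 from MEF 0.23 ± 0.13 (limma adjusted p = 0.191). Against R1, iPS cells differed by 0.42 ± 0.13, with a 95% interval from 0.12 to 0.72 (limma adjusted p = 0.0926). Tapbp is also listed, together with Rps3a1, by probe sets that entered no comparison and were highest in R1 cells. Their means were 4849 and 4795 in MEF, 6252 and 6068 in R1, and 5608 and 5531 in iPS arrays. Which gene these measure is uncertain, and their differences were not tested.

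**Figure D3:**
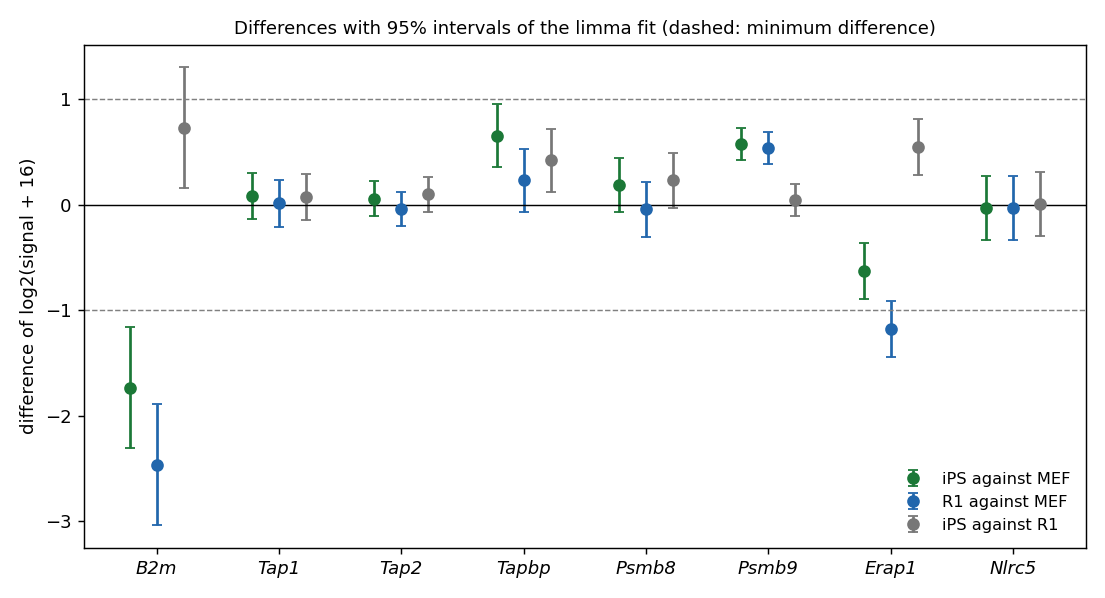
Difference of log2(signal + 16) for each measured member in the 3 comparisons, with the 95% interval of the limma fit as a bar and the minimum difference of 1 dashed. B2m in both comparisons with MEF and Erap1 in R1 against MEF pass the minimum, and the intervals of Tap1, Tap2, Psmb8 and Nlrc5 include 0 in all 3 comparisons.

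Nlrc5, the class I transactivator, gave no call on any of its 19 probe sets. The brightest on average gave 613, 439.6 and 537 in MEF, 541, 478 and 523 in R1, and 609, 512 and 437 in iPS arrays. The 3 groups overlapped, with differences of -0.03 ± 0.14 in iPS and -0.03 ± 0.14 in R1 against MEF and intervals from -0.33 to 0.28 and from -0.34 to 0.27. The other probe sets were dimmer, with mean signals from 15.7 upward and a median over the 19 of 85.0. In a fit over all single-symbol probe sets the 19 differences ran from -0.22 to 0.08 in iPS against MEF and from -0.12 to 0.12 in R1 against MEF. At an adjusted p under 0.05 limma called 0 of 19 in each of the 3 comparisons, and 0 passed an unadjusted p under 0.05. With 12 of the 19 at a mean signal of 100 or less and no detection calls, low expression could not be separated from background.

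**Figure D4:**
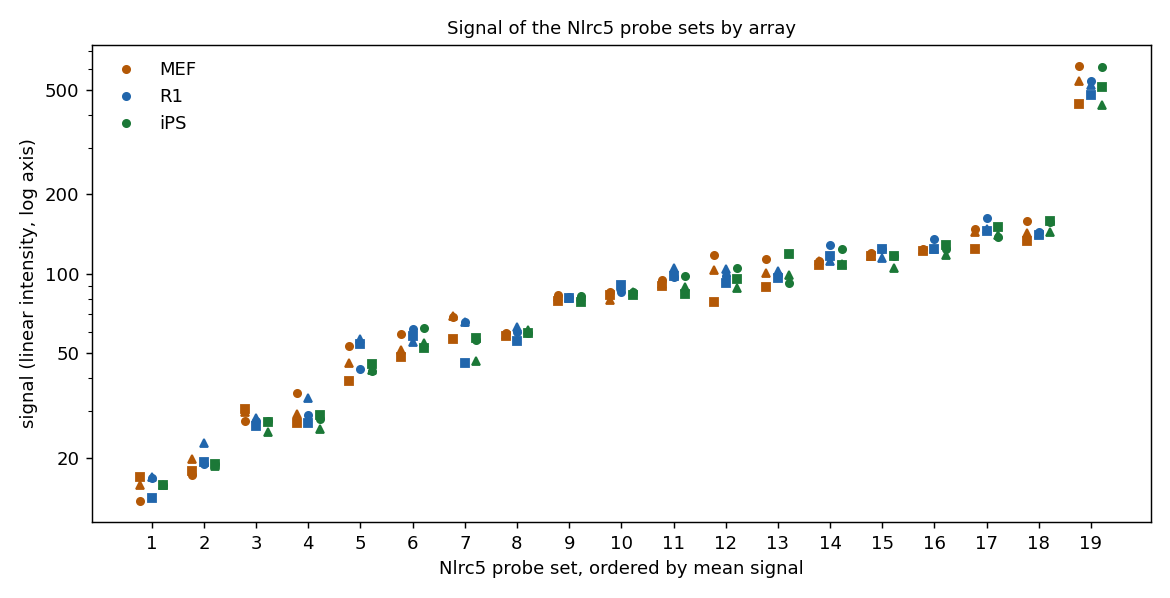
Signal (linear intensity, log axis) of the 19 Nlrc5 probe sets in each of the 9 arrays, ordered by mean signal. The log2 differences from MEF lie between -0.22 and 0.12 over the 19 probe sets.

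Set against each other, iPS and R1 cells had no called member. Limma called 0 of 8, where 0.461% of all genes were called, 0.296% higher and 0.166% lower, and 3 of 8 had an unadjusted p under 0.05 (B2m, Tapbp and Erap1), where 20.6% of all genes did. Only Erap1 passed the adjusted p without the minimum difference, which 8.52% of all genes passed, 4.12% higher and 4.4% lower. It was higher in iPS cells by 0.55 ± 0.12, with a 95% interval from 0.28 to 0.82 (limma adjusted p = 0.0221). Leaving out 1 array at a time moved that adjusted p between 0.0104 and 0.0812. All 8 differences lay at or above 0, from 0.004 for Nlrc5 to 0.73 for B2m, with a median of 0.16 beside -0.01 over all genes, of which 47% lay above 0. The sign of Nlrc5 turned under other settings. Psmb9 differed by 0.04 ± 0.07, with an interval from -0.11 to 0.19.

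The genes with the profiles nearest to the members that fell were sought among the genes outside the members, with predicted, Riken and unnamed symbols passed over. Nearness was the root-mean-square difference of centred log2 values over the 9 arrays. For B2m these were Slc30a4, a zinc transporter gene (0.19), Rhob, which encodes a small GTPase (0.19), and Tmem176b (0.20). Rhob had signals of 1152, 1193 and 1082 in MEF, 159.8, 237 and 150.1 in R1, and 288, 265 and 324 in iPS arrays. That R1 replicate 2 was its highest R1 array follows from its choice by likeness to B2m. For Erap1 the nearest were Arhgef5 (0.10), Gopc (0.12) and Ogfr (0.13). The likeness is a description over 9 arrays of 3 groups.

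Among regulators of class I transcription, the interferon gamma receptor and its kinases were low in both pluripotent lines. Of 23 measured regulators, 7 fell and 1 rose in iPS against MEF, and 7 fell and 2 rose in R1 against MEF. Of all genes, 7.58% fell and 5.08% rose in the first comparison, and 7.94% fell and 5.56% rose in the second. The list's median log2 difference was 0.003 in iPS and -0.04 in R1, beside 0.02 over all genes in each. Ifngr2, a chain of the interferon gamma receptor, had 1090 to 1333 in MEF, 195 to 251 in R1 and 267 to 278 in iPS arrays. It fell by 2.06 ± 0.10 in iPS cells (limma adjusted p = 8.74e-08) and fell by 2.38 ± 0.10 in R1 cells (limma adjusted p = 3.19e-08). Ifngr1, the ligand-binding chain, fell as well, with differences of -1.70 ± 0.09 and -2.07 ± 0.09. Its R1 signals were 78.2, 101.8 and 76.1, with replicate 2 highest, beside 118, 112 and 112 in iPS arrays.

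Of the kinases that interferon receptors use, Jak1 and Jak2 fell. Jak2 gave 560.3, 534 and 572 in MEF, 93.7, 128 and 85.0 in R1, and 138, 115 and 119 in iPS arrays, a log2 difference of -2.03 ± 0.12 in iPS and -2.29 ± 0.12 in R1 cells. Jak1 had differences of -1.61 ± 0.11 and -1.57 ± 0.11, and fell in both. Ifnar2, a chain of the type I interferon receptor, fell in both too, with -1.62 ± 0.07 and -1.39 ± 0.07. The other chain of that receptor and another of its kinases were not called: Ifnar1 differed by -0.68 ± 0.06 and -0.70 ± 0.06 and Tyk2 by 0.43 ± 0.11 and 0.30 ± 0.11. Both were named after their values were seen. The other genes that fell in both were Irf2 and Rela, and those that rose were Socs3, an inhibitor of cytokine signalling, in both, and Nfyb, a subunit of the factor that binds CCAAT boxes, in R1 at 1.0005, the edge of the minimum difference. These 4 were picked for naming after their values were seen. Irf1, an interferon-induced activator of class I genes, was not called. It had 129, 148 and 121 in MEF, 197, 177 and 208 in R1, and 315, 199 and 218 in iPS arrays, with differences of 0.79 ± 0.15 and 0.50 ± 0.15 under the minimum. Rfx5, a subunit of the factor that binds the X box of MHC promoters, was dim at 58.5 to 82.1 and differed by 0.28 ± 0.05 and 0.22 ± 0.05. The 10 fibroblast markers fell in the same comparisons, and their part was not tested.

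**Figure D5:**
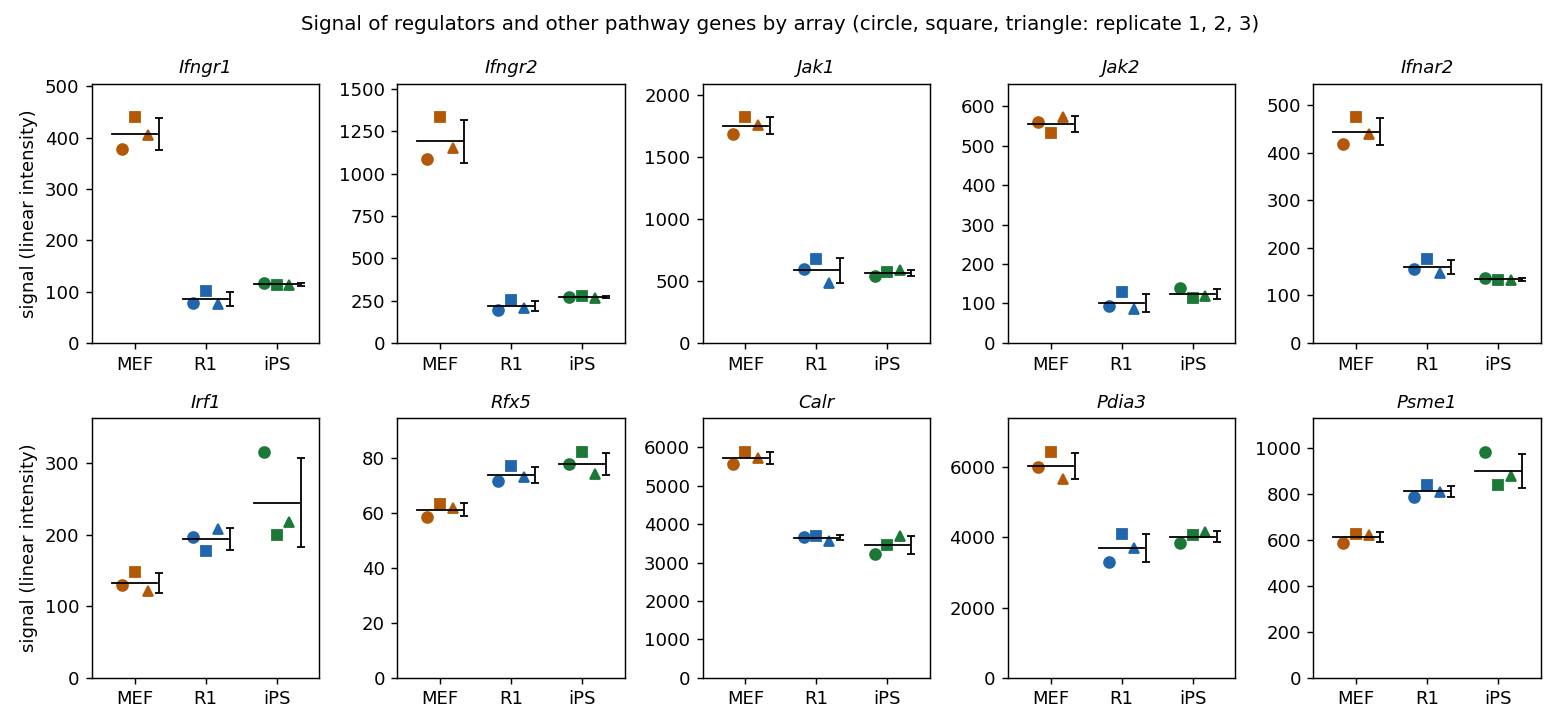
Signal (linear intensity) of 10 pathway genes outside the members in each of the 9 arrays, with the group mean as a line and the SD of 3 arrays as a bar. Ifngr1, Ifngr2, Jak1, Jak2 and Ifnar2 are lower in every R1 and iPS array than in every MEF array, while Irf1 and Psme1 are higher in every R1 and iPS array.

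Of 13 genes of peptide loading and endoplasmic reticulum quality control, 11 were lower at the adjusted p alone in each pluripotent line. Most were short of the minimum difference. Of all genes, 23.2% were lower at that adjusted p in iPS and 23% in R1 cells. Besides loading genes such as Calr, the list holds general genes of the endoplasmic reticulum such as P4hb and Sec61a1. Of 13 measured genes 0 were called in iPS against MEF by limma, where 11 had an unadjusted p under 0.05 beside 51.8% of all genes, and 2 fell in R1 against MEF, where 7.94% of all genes did. The median log2 difference was -0.58 in iPS and -0.56 in R1, beside 0.02 over all genes in each. Calr, whose product calreticulin holds the class I heavy chain with its light chain, had 5557, 5873 and 5713 in MEF, 3666, 3692 and 3566 in R1, and 3214, 3444 and 3692 in iPS arrays. The MEF arrays were all above the others, with differences of -0.73 ± 0.06 in iPS and -0.65 ± 0.06 in R1 cells. Pdia3, the ERp57 gene of the loading complex, differed by -0.58 ± 0.08 and -0.71 ± 0.08, and the calnexin gene Canx by -0.22 ± 0.05 and -0.20 ± 0.05. The genes that fell in R1 cells were the disulfide isomerase gene P4hb (-1.03 ± 0.04) and the translocon gene Sec61a1 (-1.01 ± 0.04). In iPS cells these differed by -0.999 and -0.95, and other settings moved the list's count of falls to 1 in iPS and to 1 in R1 cells. Tapbpl, a relative of tapasin, was dim at 58.9 to 85.0 and differed by 0.16 ± 0.09 and 0.09 ± 0.09.

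Differences among proteasome genes were small. Of 7 regulators and further inducible subunits, and of 14 subunits of the constitutive core, 0 were called in any comparison by limma. The called share of all genes was 12.7% in iPS against MEF, 13.5% in R1 against MEF and 0.461% between iPS and R1 cells. In iPS against MEF, 5 of the 7 and 13 of the 14 had an unadjusted p under 0.05, with median differences of 0.28 and 0.28, and in R1 against MEF 4 and 11, with medians of 0.21 and 0.24. Of all genes 51.8% and 52.8% reached that p in these comparisons, and their median difference was 0.02 in each. Between iPS and R1 cells the counts were 2 and 0. At the adjusted p alone, 4 of the 7 and 13 of the 14 were higher and 0 lower in iPS against MEF. In R1 against MEF 4 and 11 were higher and 0 lower. Among all genes 24.8% were higher at that adjusted p in iPS and 25.9% in R1 cells. Psmb10, the third inducible catalytic subunit, had 156, 140.1 and 148 in MEF, 154, 156 and 177 in R1, and 175, 156 and 156 in iPS arrays and differed by 0.12 ± 0.07 in each line. Psmb5, Psmb6 and Psmb7, the constitutive counterparts of Psmb8, Psmb9 and Psmb10 in that order, differed in iPS cells by 0.30 ± 0.07, 0.49 ± 0.05 and 0.22 ± 0.05. The activator genes Psme1 and Psme2 differed by 0.54 ± 0.06 and 0.28 ± 0.10 in iPS cells, and by 0.40 ± 0.06 and 0.01 ± 0.10 in R1 cells. Of 6 measured peptidases 0 were called in any comparison by limma, with 5 at an unadjusted p under 0.05 in iPS and 6 in R1 against MEF, and 1 between iPS and R1 cells, beside 51.8%, 52.8% and 20.6% of all genes.

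Of all genes, 12.7% were called in iPS and 13.5% in R1 against MEF. Of 20 other class I and class I-like genes measured, out of 31 listed, 1 was called in both, H2-M5, a nonclassical class I gene. It had 89.3, 71.5 and 72.0 in MEF, 195, 205 and 209 in R1, and 239, 319.6 and 261 in iPS arrays, and rose by 1.62 ± 0.10 in iPS and 1.23 ± 0.10 in R1 cells. With a pseudocount of 64 the R1 call was lost. At the adjusted p alone, 5 of the 20 were higher and 4 lower in iPS against MEF, where 24.8% and 23.2% of all genes were. In R1 against MEF 2 were higher and 2 lower, where 25.9% and 23% of all genes were. Between iPS and R1 cells 0 of the 20 were called. Only H2-Q4, named after its values were seen, passed the adjusted p there, higher in iPS cells by 0.48 ± 0.08 (limma adjusted p = 0.00544). Class II genes, which mark professional antigen-presenting cells, gave 0 calls among 9 measured genes in any comparison by limma. Between iPS and R1 cells 0.461% of all genes were called. An unadjusted p under 0.05 was reached by 3 class II genes for iPS and 4 for R1 cells against MEF, and by 1 between the pluripotent lines. Of all genes, 51.8%, 52.8% and 20.6% reached that p in these comparisons. Of 10 leukocyte markers 6 had a mean signal under 50 in each group. The exceptions that rose in both pluripotent lines were Cd68 and Laptm5, whose values were seen before they were named, and the summed marker signal was 478 to 542 in MEF, 1360 to 1582 in R1 and 1293 to 1730 in iPS arrays. Of the NKG2D ligands, by which natural killer cells recognise stressed cells, 2 of 9 were measured and 0 were called by limma. An unadjusted p under 0.05 was reached by 0 in iPS against MEF and by 2 in each of the other comparisons. The shares of all genes are those given for class II genes.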

How the data were processed

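RNA of 9 mouse samples was measured on arrays, with 1 value per probe set and array. The authors deposited linear intensity values, per the labels made from biotin-labelled cDNA, and values lay between 4 and 18820.3. GCOS 1.4 is listed in the submitters' processing notes. How signals were background-corrected, summarized or normalized is not given in the sources used. The platform annotation gave 21789 of 35557 probe sets a single symbol and 1621 several symbols, and left 12147 out. Symbols were checked by Entrez identifier against RefSeq GRCm38.p6, which held 21698 and changed 0. Where a gene had more than 1 probe set (999 genes), the brightest on average was used.

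A single fit over the 9 arrays estimated each group's mean (limma 3.58.1, lmFit and eBayes, R 4.3.3), without further normalization, on log2(signal + 16). The script was tested on simulated data. The arrays' number limits the precision. Genes are named by rule: every member, up to 4 called genes with the largest differences of each pathway list and comparison, and 15 fixed pathway genes of which 13 were measured. The rule also names the 3 genes nearest to each member whose group means spanned 1 log2 unit, with predicted, Riken and unnamed symbols passed over. The members and lists were chosen with earlier results of these data known. Alternatives covered normalization, the pseudocount, dim genes, several probe sets, the minimum difference, a variance trend with intensity, each array left out in turn, and a block on replicate number.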

Additional observations from a re-analysis of the deposited data

Results flagged for a closer look

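The probe set annotated with H2-K1, LOC547349 and H2-D1, in that order, belongs to no single gene and entered no comparison, yet its signal was higher in the R1 and iPS arrays than in the fibroblast controls. It gave 265, 338 and 278 in MEF, 391, 553 and 359.5 in R1, and 617, 419 and 471 in iPS arrays, with means of 294 ± 38.8, 434 ± 104 and 502 ± 103 (SD, n = 3). Every R1 and iPS array was above every MEF array. The probe set that lists H2-D1 first with the same symbols went the other way. It gave 468, 501 and 534 in MEF, 319.6, 468 and 302 in R1, and 419, 431 and 402 in iPS arrays. Its means were 501 ± 32.9 in MEF, 363 ± 91.0 in R1 and 417 ± 14.5 in iPS arrays. Every iPS array was below every MEF array. In both probe sets R1 replicate 2 was the highest R1 array. Which heavy chain gene either measures is uncertain, and the differences were not tested.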

How the results depend on the processing

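The calls rest on the minimum difference, which 2524, 2692 and 92 genes passed (for iPS cells and for R1 cells against MEF, then between the pluripotent lines), and of which 2524, 2691 and 92 also passed the adjusted p. Without it 9572, 9750 and 1699 genes were called, with 4 members in iPS against MEF and 1 in iPS against R1. With a pseudocount of 64, 1 member was called in R1 against MEF and 45 genes in iPS against R1. With single arrays left out, called genes numbered 2475 to 2594, 2677 to 2738 and 79 to 107. Called members numbered 1 to 1, 2 to 2 and 0 to 1 called members, with the 1 in iPS against R1 being B2m without R1 replicate 2. Counts over the pathway lists were recomputed under the same settings after the data were seen.

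Differences near 0 that were not called changed sign under some settings. Nlrc5 was 0.0118 in iPS against MEF after quantile normalization, and 0.0294 in R1 against MEF and -0.0429 in iPS against R1 with the mean of its probe sets. Over the arrays left out, the iPS minus MEF difference ran from -0.0175 to 0.1216 for Tap2 and from -0.1535 to 0.0856 for Nlrc5. The R1 minus MEF difference ran from -0.0768 to 0.0591 for Tap1, -0.1163 to 0.0228 for Tap2, -0.1266 to 0.0754 for Psmb8, -0.1571 to 0.0757 for Nlrc5 and -0.0453 to 0.0674 for Psme2. The iPS minus R1 difference ran from -0.1145 to 0.1182 for Nlrc5, -0.1673 to 0.0759 for Jak1, -0.0487 to 0.0577 for Psmb10, -0.0049 to 0.1228 for Psmb5, -0.0432 to 0.0017 for Canx and -0.0093 to 0.1509 for Tapbpl. The cause was not tested. The adjusted p of Psmb8 in iPS against MEF was 0.0365 without MEF replicate 3, by limma, within a range from 0.0365 to 0.590 over the arrays left out.

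With the replicate number as a block, limma called 2524, 2691 and 92 genes and 1, 2 and 0 members. The numbers were not taken as pairs, because they are not said to mark anything shared. Deviations of same-numbered arrays correlated between -0.08 and 0.24, and 4 of 9 arrays correlated best with an array of their own number. Pairs of replicate 1 arrays stood at 0.21, 0.23 and 0.24, of replicate 2 at 0.20, 0.06 and 0.02, and of replicate 3 at -0.03, -0.02 and -0.08. What the replicate 1 arrays share was not tested. Depth does not apply to arrays, and signal over background could not be read without detection calls.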
